A study of Homo sapiens with 14 samples.

Results

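Oxaliplatin, a platinum compound used to treat colorectal cancer, forms crosslinks in DNA, and the comparison described here asks which gene knockouts gained or lost ground when SW620 cells grew under it at 0.5 µM. SW620 is an established human colorectal carcinoma line. The comparison rests on 2 of the 14 libraries of the series, 1 treated with 0.5 µM oxaliplatin for 20 days and 1 left untreated for the same 20 days, both from the knockout screen, and it takes in all 77441 guides and 19114 genes counted there. The series ran 4 screens, with a knockout and an activation library in SW620 and in a second colorectal line, RKO, and every condition has 1 library. All SW620 knockout cells carried Cas9, selected with blasticidin, and the Brunello guide library, introduced at a multiplicity of infection near 0.3 before 3 days of puromycin. Guide counts hold no measure of the line's identity, which is taken from the labels. The libraries set beside the 0.5 µM comparison are SW620 knockout at 0.38 µM, which shares the untreated library, SW620 knockout at day 0, RKO knockout at 1.9 µM with its own untreated library, and the SW620 activation screen at 0.5 µM.

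In a pooled knockout screen each cell carries 1 guide, which directs Cas9 to cut 1 gene, and the guide's share of the sequenced cassettes stands for the share of cells descended from those that received it. A gene whose loss lets cells survive or divide better under a drug gains guide counts, and one whose loss hurts them loses counts. The library holds about 4 guides per gene, which are separate perturbations and not replicates of the condition. It also holds 1000 non-targeting guides, which were designed to cut nowhere in the genome and show how far counts drift without a knockout. Platinum crosslinks are removed by nucleotide excision repair and by the Fanconi anaemia and homologous recombination pathways, and proliferating cells that cannot repair them stall at the replication fork.

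The treated library was uneven. It held 62598725 counts, against 47429044 in the untreated library, yet the median guide had 174 counts at 0.5 µM and 524 in untreated cells. The 774 guides with the most counts (1% of guides) held 31.5% of all counts at 0.5 µM, against 3.20% in untreated cells, and 3540 guides held 50% of the treated counts, against 21533 of the untreated. Under 10 counts were found for 7160 guides (9.25%) at 0.5 µM and for 415 (0.536%) in untreated cells. Counts were therefore scaled by the median ratio over guides before a log2 fold (0.5 µM over untreated) was taken for each guide, with 5 added to each scaled count. Each gene is described by the median log2 fold over its guides. No other library of either condition exists here, so no difference could be checked against the spread between cultures, and no test was run.

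Control guides give the scale on which a gene can be read. The log2 folds of 992 non-targeting guides had a median of 0.99 and an SD of 1.91, where counting alone would give an SD of 0.0663. Their 5th and 95th percentiles were -2.68 and 3.63, and a gene is called enriched here when at least 3 of its guides lie above the upper value and depleted when at least 3 lie below the lower one. Guides against olfactory receptors, genes of smell that a colon line has no known need for, had a median of -0.08 and an SD of 2.45 over 1486 guides. Of these, 5.79% lay above the upper threshold and 18.5% below the lower one, so the lower threshold is lenient for targeting guides. Non-targeting guides started from a median scaled count of 1045 in untreated cells and olfactory receptor guides from 494. Guide folds moved with this count: in 4 groups of rising untreated count, olfactory receptor guides had medians of -1.37, -0.78, -0.13 and 0.75. In the highest group non-targeting guides had a median of 1.00 over 881 guides, against 0.75 over 443 olfactory receptor guides. In the group below it the medians were 0.78 over 95 non-targeting guides and -0.13 over 449 olfactory receptor guides, and the lower groups held 11 and 5 non-targeting guides.

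**Figure D1:**
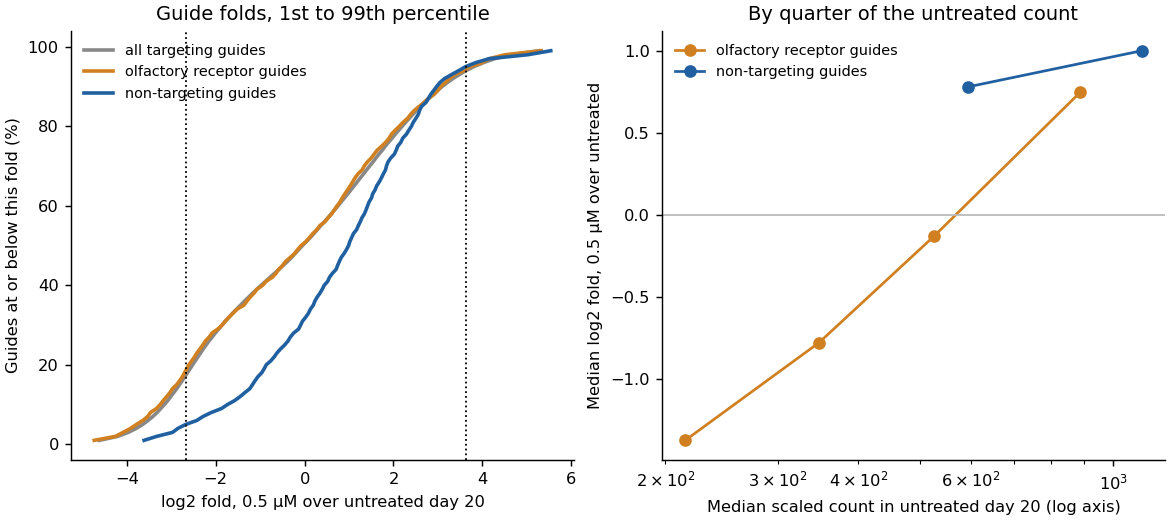
Left, the cumulative share of guides (%) against their log2 fold, 0.5 µM over untreated day 20, for all targeting, olfactory receptor and non-targeting guides, with the call thresholds of -2.68 and 3.63 dotted. Right, the median log2 fold of olfactory receptor and non-targeting guides in groups of the untreated scaled count (log axis, groups of at least 20 guides): olfactory receptor guides run from -1.37 in the lowest group to 0.75 in the highest.

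Guides of 1 gene seldom moved together. Over 18531 genes with 4 guides, the share of the variance in log2 fold that lay between genes (the intraclass correlation) was 0.0309, and the within-gene SD was 2.40. The same share was 0.0465 at 0.38 µM, 0.0989 in RKO, and 0.307 for untreated day 20 over day 0 in SW620. The 774 guides with the most treated counts belonged to 727 genes, of which 714 had a single guide among them, 11 had 2 guides, and SLC43A1 and WDR20 had all 4. C9orf171 shows the single-guide case: its 4 guides had 549575, 15, 20 and 150 counts at 0.5 µM, against 245, 306, 493 and 193 in untreated cells. The log2 folds were 12.78, -2.52, -2.82 and 1.30, with only the first above the upper threshold, and the gene's median was -0.61. HAND2, a heart and limb transcription factor, had 9, 246378, 133 and 22 counts at 0.5 µM, against 188, 218, 1490 and 371 in untreated cells, a median of -2.04. Both genes were chosen for display after their values were seen.

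By the rule of 3 guides, 26 of 19091 genes tested, those with at least 3 guides kept (0.136%), were enriched at 0.5 µM and 425 (2.23%) were depleted. Of the 374 olfactory receptor genes tested, 0 were enriched and 14 (3.74%) were depleted, so the depleted share among genes with no known role was above the share over all genes. Among the 26 enriched genes 15 had all their guides above 0. An enriched call already puts 3 guides of a gene above 0, so this count depends only on the remaining guide. Of all targeting guides 49.5% lay above 0. Among the 425 depleted genes 202 had all their guides below 0. SLC43A1 and WDR20 were the 2 enriched genes with 4 guides above the threshold. Setting the thresholds at the 5th and 95th percentiles of the olfactory receptor guides instead, a choice made after seeing the data, left 19 enriched and 14 depleted genes.

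SLC43A1 encodes LAT3, a membrane carrier that moves leucine and other large neutral amino acids down their gradient. Its 4 guides had 584589, 1266696, 272311 and 1140864 counts at 0.5 µM, against 1196, 1576, 467 and 1203 in untreated cells. Every guide was among the 5 with the most counts in the treated library. The log2 folds were 10.61, 11.33, 10.86 and 11.57, with a median of 11.09. The log2 fold of the gene's summed scaled counts was 11.21, with a 95% interval of 11.17 to 11.25 that covers counting error only, as PCR reads are not independent molecules.

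WDR20 is a WD-repeat protein that, with WDR48 (UAF1), activates the deubiquitinases USP12 and USP46. Its guides had 42672, 24514, 28929 and 50275 counts at 0.5 µM, against 864, 983, 717 and 908 in untreated cells. All 4 folds lay between 6.32 and 7.47, and the median was 7.16. At 0.38 µM the same untreated library gave a median of 4.17. WDR48 had 9511, 43 and 1043 counts at 0.5 µM, against 1087, 929 and 424 in untreated cells, a median of 2.97 over 3 guides kept. It had 1.97 at 0.38 µM and 3.97 in RKO, with 3 of 3 guides above 0 in each, and it was called enriched in RKO. USP12 had a median of 1.48, with 0.90 at 0.38 µM and 1.30 in RKO, where 4 of 4 guides lay above 0. USP46 had 52, 1609, 1 and 11 counts at 0.5 µM, against 353, 377, 318 and 314 in untreated cells, so 1 guide was higher and 3 were lower. USP1, a deubiquitinase that WDR48 also activates and that acts on FANCD2, had -0.37. It was called depleted at 0.38 µM (-3.59) and in RKO (-1.62), with 0 of 4 guides above 0 in each. WDR20 was the 1 member called of 5 in SW620 at 0.5 µM.

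EIF2AK4 encodes GCN2, a kinase that uncharged tRNA activates and that slows translation by phosphorylating eIF2 alpha. Its guides had 5060, 10741, 3183 and 3889 counts at 0.5 µM, against 81, 711, 866 and 410 in untreated cells, and all 4 were higher under the drug. The folds were 7.55, 5.59, 3.56 and 4.91, the third just under the threshold, and the median was 5.25. The same guides were lower in untreated cells at day 20 than at day 0, by a median of -1.24 with all 4 below 0. With day 0 in place of untreated day 20 the median at 0.5 µM was 4.02, still with 4 guides above 0, and the gene was no longer called. Among the 17 genes listed for GCN2 and the integrated stress response, 10 lay above the median of all genes (-0.09). GCN1L1, which GCN2 needs for activation on stalled ribosomes, had a median of 2.04, with 81, 1548, 356 and 434 counts at 0.5 µM, against 261, 410, 254 and 364 in untreated cells. ATF4, the transcription factor downstream, had 1.23 over 3 guides. CHAC1, a glutathione-degrading enzyme that ATF4 induces, was depleted at -3.85, with 10, 1, 3 and 968 counts at 0.5 µM, against 410, 269, 298 and 156 in untreated cells, so that 1 guide went the other way.

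**Figure D2:**
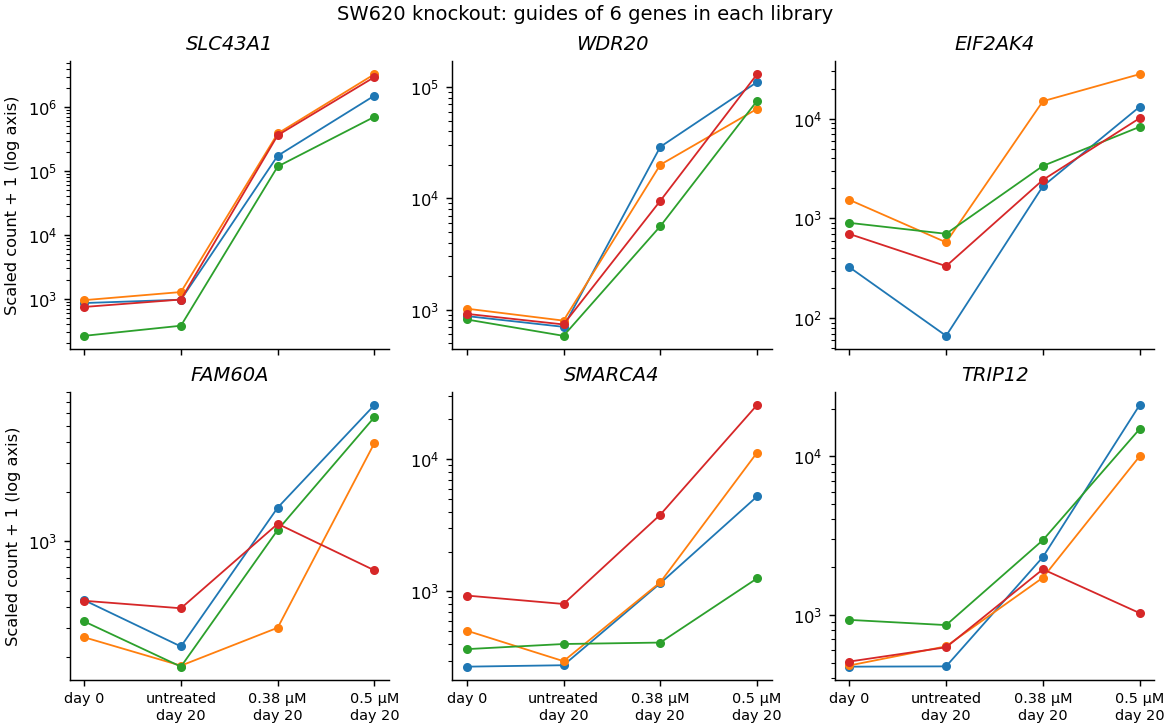
Scaled count plus 1 (log axis) of each guide of SLC43A1, WDR20, EIF2AK4, FAM60A, SMARCA4 and TRIP12 in the 4 SW620 knockout libraries, from day 0 to 0.5 µM, with 1 line per guide. All 4 guides of SLC43A1, WDR20 and EIF2AK4 end highest at 0.5 µM; in FAM60A and TRIP12 1 of 4 guides does not.

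Transport of large neutral amino acids was listed with 11 genes, of which 7 lay above the median of all genes and SLC43A1 was the 1 called. SLC43A2, its close relative LAT4, had 2632, 2808, 5817 and 10906 counts at 0.5 µM, against 1011, 1108, 1433 and 1027 in untreated cells. All 4 guides were higher, with folds of 3.06, 3.02, 3.70 and 5.09 and a median of 3.38, and 2 of them passed the threshold, 1 fewer than a call needs. SLC43A2 had 2.08 at 0.38 µM and 1.63 in RKO. The exchanger LAT1 lay on the other side: SLC7A5, its transport subunit, had a median of -2.32 with 1 of 4 guides above 0, and SLC3A2, its chaperone subunit, had -1.85 with 0 of 4. The third relative, SLC43A3, a purine carrier, had -1.92. Of 26 other amino acid transporters 12 lay above the median of all genes, and none was enriched. SLC38A2, a sodium-coupled carrier of small neutral amino acids (-2.93), and CTNS, the lysosomal cystine exporter (-2.79), were depleted. The depleted share of this list was 7.69%, against 2.23% of all genes. CTNS had 1 of 4 guides above 0 and SLC38A2 had 0 of 4.

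SMARCA4 encodes BRG1, the ATPase of the BAF and PBAF complexes that slide nucleosomes. Its guides had 2009, 4313, 482 and 9878 counts at 0.5 µM, against 341, 366, 494 and 993 in untreated cells, with a median of 4.61 and all 4 folds above 0. ARID1A, a DNA-binding subunit that defines one form of BAF and is often mutated in cancer, had 386, 5777, 2451 and 10014 counts at 0.5 µM, against 379, 598, 772 and 452 in untreated cells. Its median was 4.14 with all 4 guides higher, and 2 guides passed the threshold, so it was not called. ACTL6A (2.78) and SMARCC2 (2.35) followed, each with 3 of 4 guides above 0. Of the 20 BAF and PBAF subunits 15 (75.0%) lay above the median of all genes, and their own median was 0.75 where that of all genes was -0.09. The subunits at the low end were BRD9 (-2.32), which belongs to the noncanonical complex, and SMARCD3 (-1.85). The list's median untreated count was 459, close to the 449 over all genes. At 0.38 µM the list's median was 0.37, against 0.04 over all genes. In RKO it was 0.08 over 19 genes tested, against 0.03 over all genes. SMARCA4 (-0.98), ARID1A (-0.43) and SMARCC2 (-2.18) were below 0 in RKO, and the difference between the lines was not tested.

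The other enriched genes with the largest medians were of several kinds. FAM60A (now SINHCAF), a subunit of the SIN3 histone deacetylase complex, had 2578, 1518, 2178 and 256 counts at 0.5 µM, against 284, 217, 214 and 485 in untreated cells, and a median of 4.65. RFWD2 (now COP1), a ubiquitin ligase that targets JUN and ETS transcription factors, had 7048, 2220, 334 and 558 counts at 0.5 µM, against 409, 221, 197 and 133 in untreated cells, and a median of 4.34. In both genes all 4 guides were above 0, with 3 past the threshold. LNX2, a ubiquitin ligase that binds NUMB, had 2967, 1773, 10552 and 105 counts at 0.5 µM, against 301, 254, 421 and 881 in untreated cells, and a median of 4.71. BAG2, a cochaperone of HSP70, had a median of 4.22 and also had 1 guide below 0. CCDC169, ATOH7, a transcription factor of retinal ganglion cells, GNAT2, the transducin of cone photoreceptors, and PSORS1C2 completed the 12 highest, with medians of 4.21, 4.15, 4.12 and 4.09. ATOH7 and GNAT2 are genes of the eye, and CCDC169 owed its call to a guide at the threshold itself (3.63).

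The 14 genes below these had medians of 3.71 to 4.08 and are named with their values known. TRIP12, a HECT ubiquitin ligase that curbs the spread of damage-induced ubiquitin on chromatin, had 8116, 3853, 5726 and 394 counts at 0.5 µM, against 584, 782, 1065 and 771 in untreated cells, a median of 4.04. VEZF1, a zinc-finger transcription factor of blood vessels, had 17, 29092, 6411 and 9779 counts at 0.5 µM, against 270, 1344, 1219 and 1844 in untreated cells, a median of 4.08. Of the guides of both genes 3 were high and 1 was not, and in VEZF1 that guide was low. SF3B2, a subunit of the U2 snRNP, had all 4 folds between 3.52 and 4.18, with 1577, 2220, 2756 and 556 counts at 0.5 µM, against 345, 618, 630 and 93 in untreated cells. This narrow span did not recur at 0.38 µM, where the median was -1.04. The tyrosine kinase SRC (3.94) had 2109, 1860, 5 and 5969 counts at 0.5 µM, against 435, 388, 190 and 404 in untreated cells. The remaining 10 were FAM213A, PLAC9, NSMF, SORCS1, KREMEN2, CXorf66, EIF4G3, MYLPF, ZNF496 and PPAP2A.

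Lists drawn up for partners of these genes after their values were seen each held 1 enriched gene, the one they were drawn up for. Of 17 SIN3 complex genes 11 lay above the median of all genes with a median of 1.51, FAM60A was the 1 called, and ING1, a reader of methylated histone tails, stood at 4.17 over 3 guides of which 1 was low. Of 8 genes around COP1 4 lay above, of 20 HECT ligases 13, and of 7 SF3B subunits 1, SF3B2 itself. The HECT list had a median of 0.73, and its member UBE3B was depleted.

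The lower dose and the second line show which of these genes were high elsewhere. At 0.38 µM, over the same untreated library, 57 of 19092 genes (0.299%) were enriched and 674 (3.53%) depleted by the same rule with that comparison's own thresholds. SLC43A1 had 8.26 there, WDR20 4.17, EIF2AK4 3.77, FAM60A 2.21, SMARCA4 2.01 and TRIP12 1.70, all called. The other genes enriched at 0.5 µM were not called at 0.38 µM, and SF3B2 (-1.04), LNX2 (-0.84), SORCS1 (-0.74), MYLPF (-0.19) and CXorf66 (-0.18) lay below 0. ARID1A, not called at 0.5 µM, had 2.13. The scatter of the shared untreated library enters both sets of folds. The 0.38 µM library over day 0 shares no library with the 0.5 µM comparison, though the labels do not say whether all came from 1 transduced population. There 22 of the 26 enriched genes lay above 0 (84.6%), against 53.7% of all genes, with EIF2AK4 at 2.29 and SLC43A1 at 8.73. The median of the 26 was 0.56, against 0.06 over all genes. Only EIF2AK4, SLC43A1, TRIP12 and WDR20 were called enriched (15.4%, against 0.105% of all genes), and SF3B2 was called depleted (-1.75).

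In RKO at 1.9 µM, which shares no library with SW620, 192 of 18449 genes (1.04%) were enriched and 413 (2.24%) depleted. Of the 26 genes enriched in SW620 at 0.5 µM, 4 (15.4%) were enriched in RKO and 1 was depleted, and 15 (57.7%) lay above 0, against 51.6% of all genes. The 4 were SLC43A1, WDR20, TRIP12 and VEZF1. WDR20 had 13255, 13894, 12003 and 12236 counts in treated RKO, against 1176, 1287, 1113 and 1128 in untreated RKO, with log2 folds of 4.77 to 4.84. TRIP12 had 262, 401, 4445 and 1279 counts in treated RKO, against 155, 128, 177 and 305 in untreated RKO, with all 4 folds above 0 and a median of 3.16. VEZF1 had a median of 2.43 in RKO, where its guide that was low in SW620 had a fold of 2.86. EIF2AK4 had 0.92 with 3 of 4 guides above 0. Over 18447 genes tested in both, the medians of SW620 at 0.5 µM and RKO had a Pearson coefficient of 0.0383 and a Spearman coefficient of 0.0375, a description across genes, which are not independent. KEAP1, the adaptor that holds NRF2 down and the third highest gene in RKO, had -1.76 in SW620 and 8.81 in RKO. In the SW620 activation screen at 0.5 µM, 7 of 24 of the enriched genes measured there (29.2%) lay above 0, against 50.6% of all genes.

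**Figure D3:**
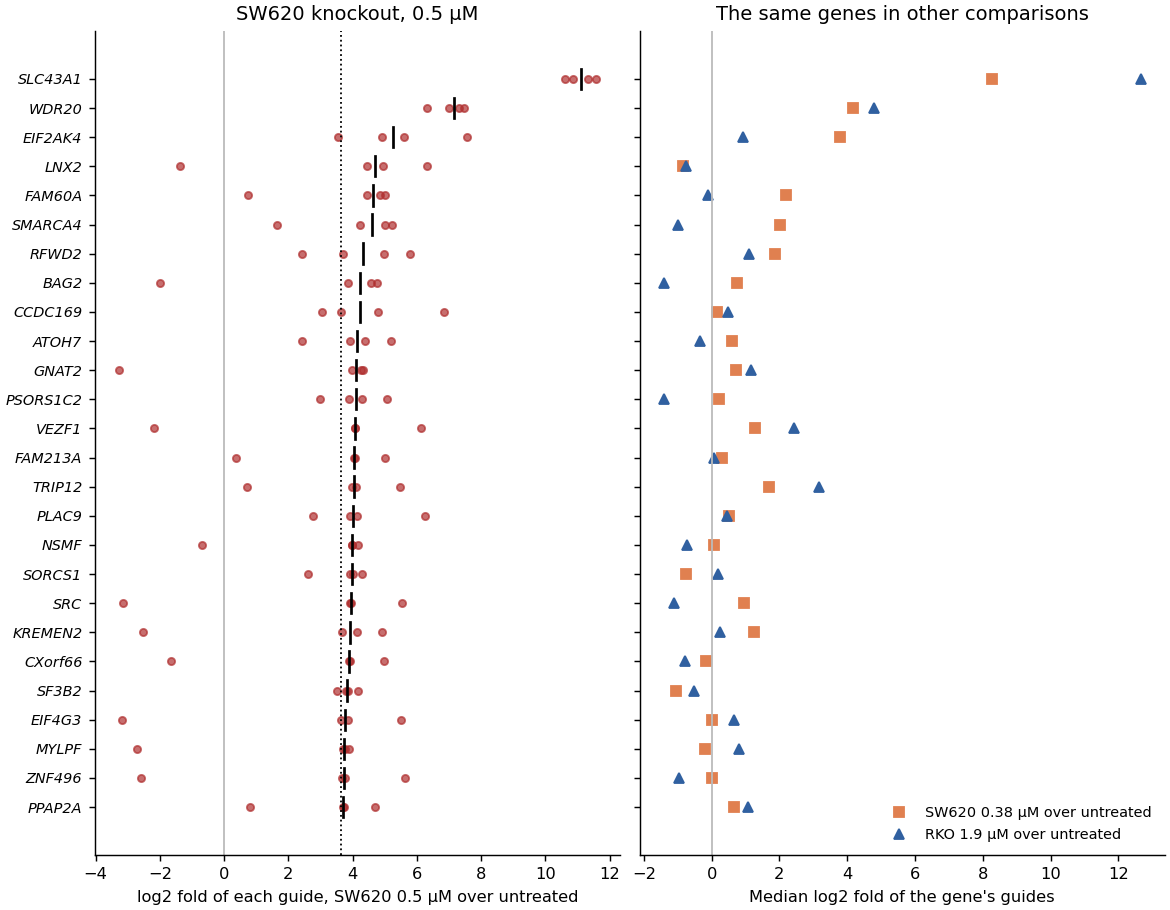
Left, log2 fold of each guide (points) and median (bars) of the 26 genes enriched in SW620 knockout at 0.5 µM over untreated, with the upper threshold of 3.63 dotted. Right, the median log2 fold of the same genes in SW620 at 0.38 µM over the same untreated library (squares) and in RKO at 1.9 µM over its own (triangles): SLC43A1 and WDR20 are high in all 3, and apart from TRIP12 and VEZF1 the others lie between -1.41 and 1.15 in RKO.

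**Figure D4:**
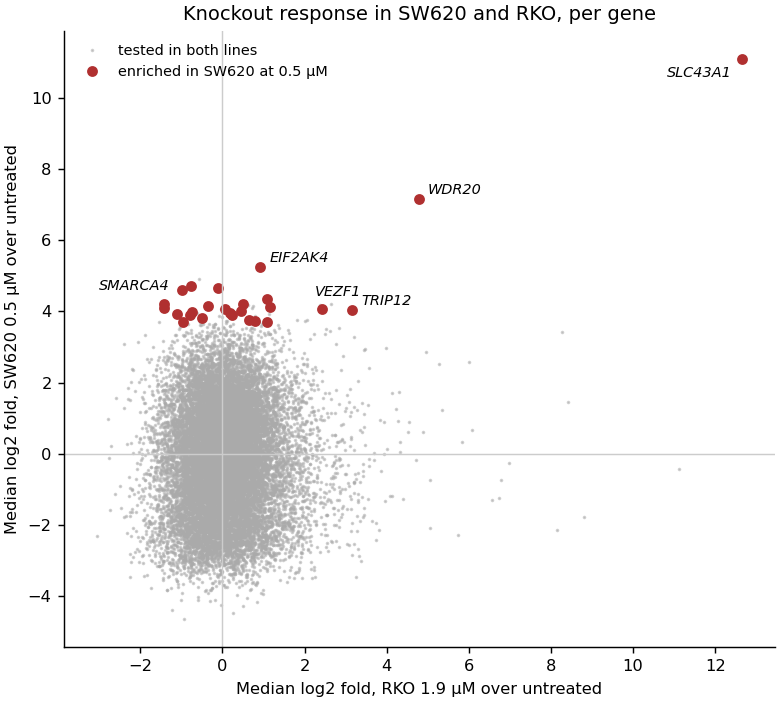
Median log2 fold per gene in SW620 knockout at 0.5 µM (vertical axis) against RKO knockout at 1.9 µM (horizontal axis), each over its own untreated library. The 26 genes enriched in SW620 are red; SLC43A1, WDR20, TRIP12 and VEZF1 lie to the right, and SMARCA4 (-0.98 in RKO) lies left of 0.

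Guides of the lowest depleted genes had few counts left at 0.5 µM. PSMD7, a lid subunit of the proteasome, had the lowest median among called genes (-4.60), with 0, 2, 1 and 19 counts at 0.5 µM, against 203, 280, 237 and 245 in untreated cells. The guide at 0 was at least 21.0-fold lower, taking 3 counts as its upper limit. EIF1, which helps the ribosome choose the start codon, had 13, 2, 3 and 28 counts at 0.5 µM, against 929, 575, 404 and 847 in untreated cells, a median of -4.49. All 4 EIF1 guides were below the threshold, and the median at 0.38 µM was -2.37. TTK, the MPS1 kinase of the spindle checkpoint, had 0, 1, 32 and 0 counts at 0.5 µM, against 250, 163, 301 and 157 in untreated cells, a median of -4.44. At 0.38 µM PSMD7 had 0.37 and TTK -0.12. TMBIM4, a Golgi protein that restrains apoptosis, had 4, 31, 1 and 2 counts at 0.5 µM, against 316, 990, 235 and 323 in untreated cells, a median of -4.38, with all 4 guides past the threshold and -0.52 at 0.38 µM.

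The other genes among the 12 lowest called were ZNF492, AP1S1, OR1M1, ANKRD53, SHROOM1, UNKL, FZD7 and TOMM5, with medians of -4.40 to -4.11. OR1M1 is an olfactory receptor, and its 4 guides had 11, 1, 3 and 3 counts at 0.5 µM, against 554, 416, 353 and 250 in untreated cells. Its median of -4.26, with 4 guides past the threshold, lay close to those of EIF1 and TMBIM4. AP1S1, a small subunit of the AP-1 clathrin adaptor, had 0, 1390, 0 and 6 counts at 0.5 µM, against 570, 893, 350 and 162 in untreated cells, so 1 of its guides was higher. ANKRD53, SHROOM1 and UNKL also had 1 of 4 guides above 0. FZD7 is a Wnt receptor, with 87, 4, 0 and 2 counts at 0.5 µM, against 325, 334, 98 and 239 in untreated cells. TOMM5 is a small subunit of the mitochondrial import pore. At 0.38 µM AP1S1 (0.35), UNKL (0.66), FZD7 (0.64) and TOMM5 (0.11) lay above 0. ZNF492 (-0.35), OR1M1 (-1.39), ANKRD53 (-0.74) and SHROOM1 (-0.43) lay below 0 there.

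Of the 425 depleted genes 393 were tested in RKO, where 16 (4.07%) were depleted and 3 (0.763%) enriched. This stands beside 2.24% of all genes depleted and 1.04% enriched there. In SW620 at 0.38 µM over day 0, 50 of the 425 (11.8%) were depleted and 1 (0.235%) was enriched. The shares of all genes there were 7.89% and 0.105%. Depleted calls also moved with the starting count. In the lowest of 4 groups of genes by untreated count 215 of 4776 (4.50%) were depleted, against 14 of 4770 (0.294%) in the highest. The gene medians of these groups, from lowest to highest count, were -0.87, -0.35, 0.05 and 0.56. The part of the untreated count in the depleted calls was not tested. Under the olfactory receptor thresholds the 14 genes that stayed depleted were PSMD7, EIF1, TTK, ZNF492, TMBIM4, OR1M1, ANKRD53, SHROOM1, FZD7, CHURC1, CXCL14, RASSF5, STAT5A and H2AFX. Of these, ANKRD53, SHROOM1, CHURC1 and RASSF5 each had 1 of 4 guides above 0. H2AFX encodes the histone variant that is phosphorylated at DNA breaks, and its guides had 2, 56, 4 and 6 counts at 0.5 µM, against 287, 429, 267 and 355 in untreated cells, with a median of -3.83 and a median of 0.47 at 0.38 µM.

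Pathways that repair platinum damage were mostly on the low side, without calls in the main crosslink pathways. Of 21 Fanconi anaemia genes 6 lay above the median of all genes, their median was -1.30, and none was called. FANCI (-2.91) and FANCD2 (-2.21), the pair that is clamped onto crosslinked DNA, were low, and at 0.38 µM they had -0.62 and -0.99. The member of this list farthest from 0 went the other way, at 2.97. Of 28 homologous recombination genes 6 lay above, with a median of -1.30, and none was called. These lists had median untreated counts of 444 and 405, where all genes had 449, and the part of the starting count in their medians was not tested. Their medians were -0.88 and -0.63 at 0.38 µM, and -0.96 and 0.10 in RKO.

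Translesion synthesis had 4 of 13 genes above the median of all genes (median -1.09), with the Rad6 homologue UBE2A at -2.40. Of the 3 UBE2A guides kept 1 lay above 0. Mismatch repair had 2 of 8 above (median -1.23). At 0.38 µM the translesion synthesis and mismatch repair medians were -0.15 and 0.28, against 0.04 over all genes. In nucleotide excision repair 12 of 26 lay above (median -0.44), and CETN2, a partner of the damage sensor XPC (-3.63), and ERCC8, which acts where RNA polymerase stalls (-3.41), were depleted. The depleted share of this list was 7.69%, against 2.23% of all genes. Of the 4 ERCC8 guides 1 lay above 0. At 0.38 µM ERCC8 had -1.54 and CETN2 had 0.38. XPA, needed for this repair in all its forms, had -2.50 with 0 of 4 guides above 0, and ERCC2, a helicase of TFIIH, had 3.48. In end joining 8 of 17 lay above, and TP53BP1, which steers breaks to end joining, was the farthest out at 2.75 with 3 of 4 guides higher, and had 2.94 in RKO. For the ATR and CHK1 checkpoint 9 of 19 lay above, and CDC25B, a phosphatase that drives entry into mitosis, was depleted (-2.86). Of the 4 CDC25B guides 1 lay above 0, at 1.58.

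Of the p53 and cell cycle list 9 of 23 lay above the median of all genes, and the kinase CDK4 was depleted (-3.00). CDK4 had 1 of 4 guides above 0. Among genes that promote apoptosis 13 of 22 lay above, and PMAIP1 (NOXA) was depleted (-3.48). Among genes that restrain it 6 of 10 lay above, BCL2 was depleted (-3.26), and XIAP was at 2.95 with 4 of 4 guides higher. A death-promoting and a death-restraining gene were thus both depleted, with 1 of 4 guides above 0 in each.

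Uptake and detoxification genes gave no call. Of 22 genes of platinum and copper transport 10 lay above the median of all genes, and SLC31A1, the copper importer CTR1, was the farthest out at -2.48. Of the 4 SLC31A1 guides 1 lay above 0, at 1.85. Of 20 genes around KEAP1, NRF2 and glutathione 11 lay above, and GCLC, which makes the glutathione precursor, had -2.67 with 0 of 4 guides above 0 and -1.93 at 0.38 µM.

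In nutrient signalling, FLCN (-3.17) and FNIP1 (-3.58), partners in the complex that controls the Rag GTPases at the lysosome, were both depleted among 22 mTORC1 suppressors, of which 11 lay above the median of all genes. The depleted share of this list was 9.09%, against 2.23% of all genes. FNIP1 had 16, 9, 2 and 7 counts at 0.5 µM, against 750, 380, 359 and 210 in untreated cells. FLCN had 7, 16, 4 and 1 counts at 0.5 µM, against 350, 341, 118 and 179 in untreated cells. All 8 guides of the pair were lower, and at 0.38 µM FNIP1 had 0.00 and FLCN -0.84. Of the 22 genes of mTORC1 and its activators 12 lay above, none was called, and PDPK1, the kinase upstream of AKT and S6K, was the farthest out at 3.22 with 4 of 4 guides higher.

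In the Hippo pathway, which restrains YAP and TAZ, 12 of 20 suppressors lay above the median of all genes and none was called. LATS2, the kinase that phosphorylates YAP, was the farthest out at 3.42, with 111, 746, 1868 and 2957 counts at 0.5 µM, against 654, 376, 326 and 213 in untreated cells. YAP1 itself was at -1.78, and 4 of 6 YAP, TAZ and TEAD genes lay above the median of all genes. Of the Wnt list 12 of 22 lay above, with FZD7 depleted. In the RAS to ERK list 9 of 19 lay above, and none was called. The AP-1 adaptor list had 6 of 10 above, the SAGA coactivator 6 of 20 with its deubiquitinase USP22 depleted (-3.22), and SREBP processing 8 of 13 with ACSL3 at 3.08. USP22 had 1 of 4 guides above 0 and ACSL3 had 3 of 4. Casein kinase 2 had CSNK2A2 at 1.91, CSNK2A1 at 0.86 and CSNK2B, its regulatory subunit, at -2.29, where RKO had 5.74 for CSNK2B.

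Genes that most cells need to grow were on the low side, and they also began low. Of 78 cytosolic ribosomal proteins 22 lay above the median of all genes, and their median was -1.03. In this list 6 (7.69%) were depleted, RPL15, RPL27A, RPL35, RPL7A and RPS27A among them. RPS27A had 1 of 4 guides above 0. Of 31 proteasome genes 6 lay above, with a median of -1.27 and PSMB2, PSMC5 and PSMD7 depleted (9.68%). Of 33 replication fork proteins 6 lay above, with a median of -1.19, no call, and FEN1 at -2.75. Of 77 mitochondrial ribosome genes 23 lay above, with MRPS27 and MRPS18B depleted (2.60%). Over all genes 2.23% were depleted, and over olfactory receptor genes 3.74%. The median untreated counts of these 4 lists were 240, 263, 292 and 357, against 449 over all genes, and the first 3 values lie below 332, the upper bound of the lowest count group, whose genes had a median of -0.87. The part of the starting count in these lists was not tested. Of 12 RNA polymerase II subunits 3 lay above (POLR2A at -2.77), of 49 complex I genes 19 (NDUFA9 depleted at -2.94), and of 20 ATP synthase genes 8 (ATP5J2 depleted at -3.12). NDUFA9 and ATP5J2 each had 1 of 4 guides above 0, at 2.58 and 0.70.

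**Figure D5:**
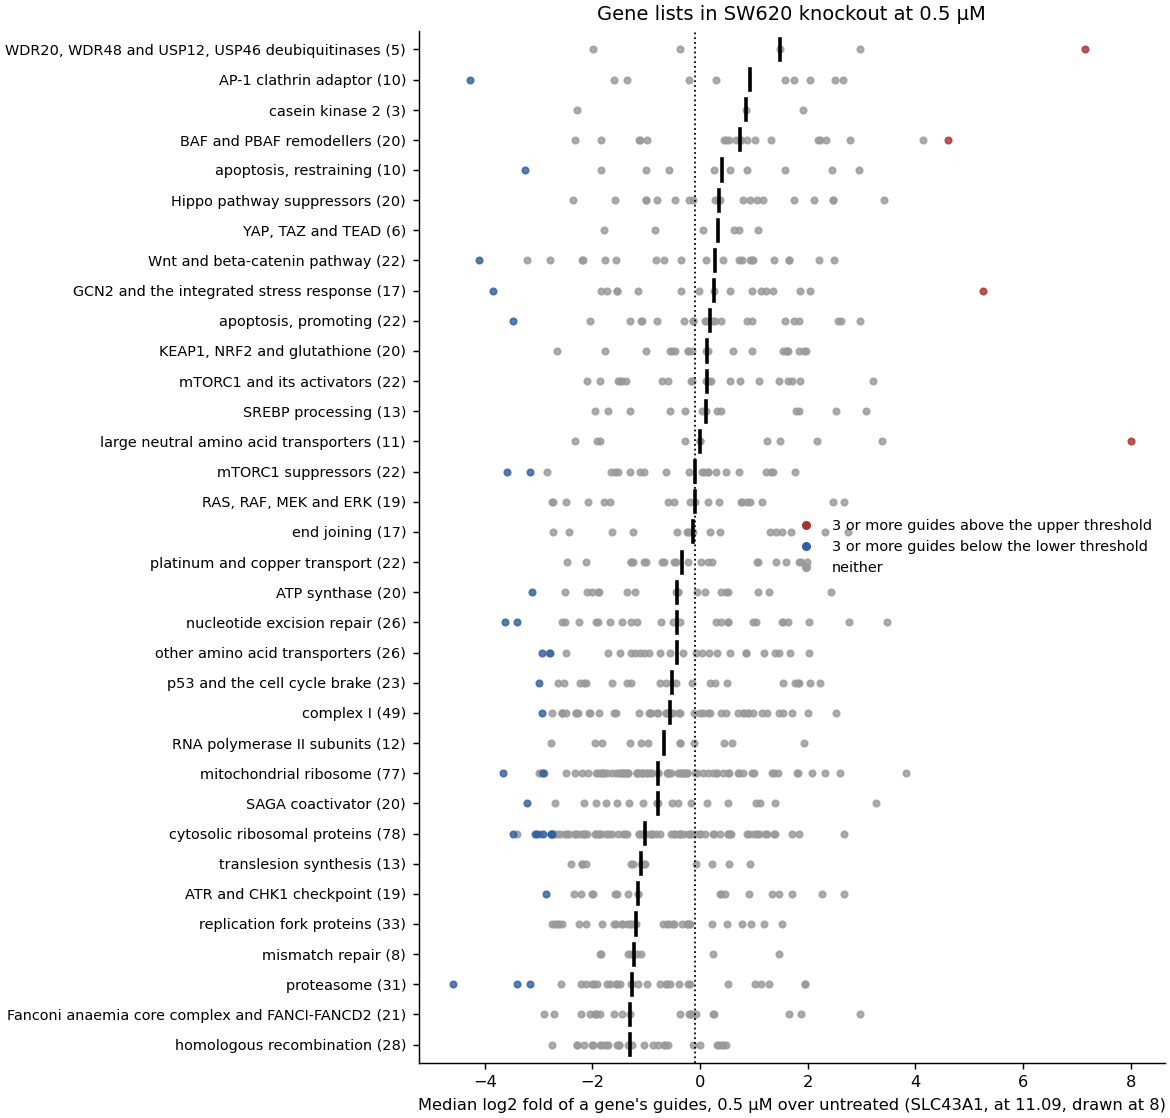
Median log2 fold (0.5 µM over untreated) of each gene in 34 lists, with the number tested in brackets, the list's median as a bar and the median of all genes (-0.09) dotted; red and blue mark called genes. The highest list medians are 1.48 (WDR20 and deubiquitinases), 0.94 (AP-1 adaptor), 0.86 (casein kinase 2) and 0.75 (BAF and PBAF remodellers). Fanconi anaemia and homologous recombination genes lie lowest at -1.30.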

How the data were processed

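The authors deposited whole-number counts of each guide per library, from guide cassettes amplified from genomic DNA, per the labels' protocols. They also deposited a normalized signal, which a check found to be the count times 1 constant per library (2.66 at 0.5 µM). The tools were MAGeCK 0.5.7 and cutadapt 4.0, per the submitters' processing notes; their settings and a genome build are not given in the sources used here. Guide sequences were not used here, and results for some genes are not reported here. Of the 19114 symbols, 17852 are current.

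Scaling used the median over guides of the ratio to their geometric mean; log2 folds took a pseudocount of 5 and guides with a mean scaled count of at least 20, which kept 76840 guides. Genes needed 3 kept guides; 23 were left out. Calls needed 3 guides past the 5th or 95th percentile of non-targeting guides of the same comparison. The code was tested on simulated data and ran in Python 3.11.15 with pandas 2.3.3. With 1 library per condition there is no test; scaling, pseudocount, filter, threshold, guide number and control library were varied. Named were the 12 highest and 12 lowest called genes, called members of 35 lists or else the member farthest from 0, and lists of up to 5 genes whole; ARID1A, SLC43A2 and others were added with values known. Members and lists were chosen with earlier results of these data known. Confidence intervals are at 95%, and the floor is 3 counts.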

Additional observations from a re-analysis of the deposited data

Results flagged for a closer look

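Genes called in opposite directions in the 2 lines are given here, and the difference between lines was not tested. Of the 393 genes depleted in SW620 and tested in RKO, 3 (0.763%) were enriched in RKO, against 1.04% of all genes. Of the 26 genes enriched in SW620, 1 (3.85%) was depleted in RKO, against 2.24% of all genes. BAG2, the HSP70 cochaperone, had a median log2 fold of 4.217 in SW620 at 0.5 µM and -1.411 in RKO at 1.9 µM. UBA1, the main ubiquitin-activating enzyme, had -2.846 in SW620, with 18, 27, 10 and 4 counts at 0.5 µM, against 536, 182, 258 and 137 in untreated cells, and 3.147 in RKO. FAM98B, a subunit of the tRNA ligase complex, had -3.5 in SW620 and 2.171 in RKO, and VPS45, a factor of membrane fusion at endosomes, had -3.042 in SW620 and 2.151 in RKO. FAM98B had 1 guide above 0 in SW620, at 2.73.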

How the results depend on the processing

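No paired analysis was possible because each condition has 1 library. The 26 enriched genes became 774 with a fixed 4-fold threshold, 132 with the 90th and 10th percentile of non-targeting guides, 420 with at least 2 guides past the threshold, and 13 with day 0 as the control library. The 425 depleted genes became 239 with a pseudocount of 20, 1552 with a fixed 4-fold threshold, 2084 with the 90th and 10th percentile, 2751 with at least 2 guides, 1076 with day 0 as the control library, and 14 with olfactory receptor guides, an alternative added after seeing the data. Under the other alternatives both counts stayed within 1.5 times. Of the 26 genes 11 were enriched under all 12 alternatives: SLC43A1, WDR20, LNX2, FAM60A, SMARCA4, PSORS1C2, VEZF1, FAM213A, TRIP12, NSMF and SRC. EIF2AK4 was not called with day 0 as control, where the upper threshold was 3.88. It was also not called where each guide needed an untreated scaled count of 100. That filter removed its guide with the highest fold (7.55), whose untreated scaled count was 65.4. Of the guides left, 1 was at 3.56, under the threshold of 3.63. Scaling on non-targeting guides moved the median of all genes by -0.95 and scaling on total counts by -2.02, so lists are given against that median. Over 82 named genes 286 of 654 recomputed medians moved by more than their counting interval. No called gene changed sign, but of the uncalled ones USP12 became -0.59 and CSNK2A2 -0.17 with scaling on total counts, and CSNK2A1 became -0.11 and -1.21 with scaling on non-targeting guides and on total counts. Guides with 0 counts, 887 at 0.5 µM and 307 in untreated cells, allow only a bound on their fold.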
